A study of Mus musculus with 6 samples.

Results

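The 5S ribosomal RNA genes and the 4.5S RNA repeats of the mouse genome were examined in peak lists made from DNA pulled down with oligonucleotides complementary to Tug1, a long noncoding RNA. The regions were all peaks of 4 pulldown libraries that overlapped a window of chromosome 8 holding the 5S gene cluster (123500000 to 123700000 of mm10) or a window of chromosome 6 around the Rn4.5s gene (47600000 to 47800000). They numbered 341 of 130269 peaks, 202 in the 5S window and 139 in the 4.5S window. Each library contributed a similar number, 85 of 40725 peaks in even replicate 1, 82 of 26529 in even replicate 2, 96 of 28047 in odd replicate 1 and 78 of 34968 in odd replicate 2.

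The cells were cultured mouse kidney podocytes, the epithelial cells of the glomerular filter, immortalized with a temperature-sensitive SV40 T antigen. They were kept at 33 °C and then differentiated during 10 days at 37 °C, and passages 10 to 12 were used. In chromatin isolation by RNA purification (ChIRP-seq), biotinylated oligonucleotides pull an RNA and its crosslinked chromatin from a nuclear extract, and the DNA is sequenced. The 48 probes along Tug1 formed an even-numbered and an odd-numbered set, and each set served for 2 pulldowns. All 4 came from untreated cells crosslinked with glutaraldehyde, so the probe set was the only labelled difference between the groups. Each list was called against 1 of 2 input libraries, input 1 for replicates 1 and input 2 for replicates 2, per the file names. The values of the inputs were not analysed here, and neither was a pulldown with probes against another RNA. Peak lists hold no expression values, so the podocyte label was not checked against markers, and no read counts, so the depth of each library is unknown. Nothing in the labels says that replicates came from separate cultures, and the spread between them may be technical.

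5S rRNA is the small RNA of the large ribosomal subunit that is made by RNA polymerase III rather than polymerase I. Transcription starts when TFIIIA binds a control region inside the gene and TFIIIC and TFIIIB follow. The genes lie in head-to-tail repeats, each made of a short coding part and a longer spacer. The 4.5S RNA of rodents is another polymerase III transcript, related in sequence to the B1 family of short interspersed repeats, and its genes also lie in long tandem repeats. Copies of such arrays are nearly identical, so that sequence alone cannot place every read in 1 copy. The sources used here do not say how the authors treated reads with several placements.

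The repeated sequence of the 4.5S array could be read directly, because the RefSeq promoter table (GRCm38.p6, the mm10 assembly) lists 300 bases around the starts of gene models predicted there. The window lying at chr6:47653742-47654041 on the plus strand at a start of Gm40369 recurred without a single difference at Gm40367 (chr6:47662342-47662641), Gm36327 (chr6:47675332-47675631) and Gm40364 (chr6:47679657-47679956). A start of Gm52861 (chr6:47738587-47738886), beyond a long interval without peaks, differed from it by 4 edits. Both sequences are shown because all 4 pulldowns had peaks over every one of these copies. Capitals mark the bases at which the pair differs or that the other lacks.
Gm40369, Gm40367, Gm36327 and Gm40364: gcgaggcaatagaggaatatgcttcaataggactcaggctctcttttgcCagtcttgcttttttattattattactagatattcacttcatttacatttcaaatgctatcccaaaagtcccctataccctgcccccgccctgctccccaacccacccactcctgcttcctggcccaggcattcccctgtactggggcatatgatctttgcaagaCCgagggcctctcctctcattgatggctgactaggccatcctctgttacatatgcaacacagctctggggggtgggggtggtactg
Gm52861: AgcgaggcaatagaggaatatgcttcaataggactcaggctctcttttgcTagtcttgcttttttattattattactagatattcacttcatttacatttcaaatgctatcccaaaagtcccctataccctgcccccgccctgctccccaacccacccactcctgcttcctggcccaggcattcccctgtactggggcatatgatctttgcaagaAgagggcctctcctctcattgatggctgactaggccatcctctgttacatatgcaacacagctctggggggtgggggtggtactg
Counted from 1 at the first base of the Gm40369 window, the substitutions were C50T and C215A, the base at 216 was missing, and 1 base was added before the first. None of the other promoter windows among the 32851 in the table was identical to it. Only identity over all 300 bases was searched, and whether parts of the sequence recur elsewhere in the genome was not tested. The starts of the identical copies lay 8600, 12990 and 4325 bases apart, which makes 25915 bases for 6 repeats, or 4319 bases per repeat. The Rn4.5s gene itself (gene ID 19799, chr6:47654921-47655094) begins 1179 bases after the start of the first copy, inside the Gm40369 model. No sequence of the 5S genes or of Rn4.5s itself was used here.

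Both windows were dense in peaks. Even replicates 1 and 2 had 47 and 44 peaks in the 5S window, while 58 and 53 were found in odd replicates 1 and 2. In the 4.5S window the even libraries had 38 each and the odd libraries 38 and 25. Over windows of 200 kb laid in steps of 100 kb along the genome, the median was 3 peaks in even replicate 1 and 2 in each other library. The 5S window was exceeded by no such window in even replicate 1 or odd replicate 1, by 10 of 27195 in even replicate 2 and by 6 of 27224 in odd replicate 2. For the 4.5S window these numbers were 3, 15, 2 and 39, listed for the even and then the odd pair. Windows over the 5S array, which had more peaks in every library, were among those compared. Against the rest of chromosome 8, the 5S window had 9.88, 12.2, 18.7 and 11.1 times as many peaks per Mb, in the same order. Against the rest of chromosome 6, the 4.5S window had 13.6, 21.0, 18.7 and 10.8 times as many. On the log2 scale the mean ratio was 3.65 ± 0.40 (SD, n = 4) for the 5S and 3.95 ± 0.44 for the 4.5S window, above 0 in 4 of 4 libraries in both (exact sign-flip permutation test, two-sided p = 0.125, the smallest that 4 libraries allow, and 0.143 after Benjamini-Hochberg adjustment over 8 tests made within libraries).

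Covered bases showed a contrast between probe sets in the 5S window. Peaks of even replicates 1 and 2 covered 32.8 and 28.2 kb of it, those of odd replicates 1 and 2 covered 55.9 and 76.9 kb. Both odd libraries thus lay above both even ones. Peak numbers as deposited were also higher in both odd libraries, by 10 on average, but the sets overlapped once peaks under 100 bp apart were joined (a difference of -2 for even minus odd) or peaks below the median score of their list were left out (-7.5; exact permutation p = 1 for both). That score filter dropped no 5S peak of odd replicate 1, all of which scored 3100, but did drop peaks of the other lists. Means of covered bases were 30.5 ± 3.25 kb (SD, n = 2) with even and 66.4 ± 14.9 kb with odd probes, a difference of -35.9 kb for even minus odd. With 2 libraries against 2, the exact permutation test has a two-sided p of 0.333 at its smallest, which was the value here (0.667 after adjustment over 4 tests). As a share of all bases covered by a list, the 5S window held 0.205% and 0.256% with even probes, against 0.720% and 0.524% with odd probes. The 4.5S window did not separate the sets. It was covered over 48.3 and 46.2 kb in the even libraries, between the 29.1 kb of odd replicate 1 and the 68.0 kb of odd replicate 2. Means were 47.2 ± 1.46 and 48.6 ± 27.5 kb (SD, n = 2; exact permutation p = 1, also adjusted), so the spread between the odd pulldowns was far larger than the difference between the sets. Without odd replicate 2 the even libraries had 18087 bases more than odd replicate 1, and without odd replicate 1 the difference from odd replicate 2 was -20749 bases. That the contrast differs between the arrays was not tested.

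**Figure D1:**
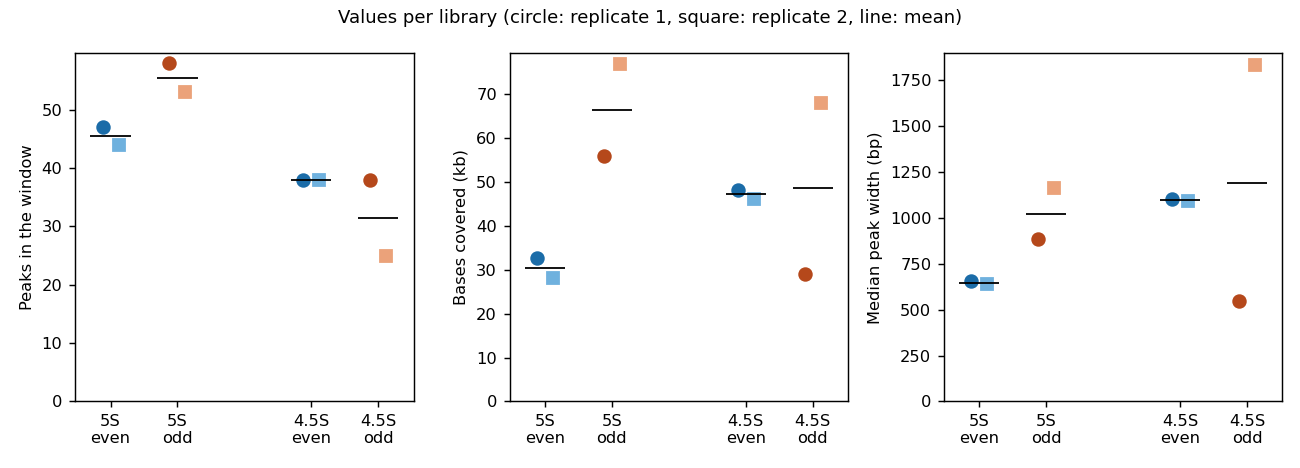
Number of peaks (left), bases covered in kb (middle) and median peak width in bp (right) in the 5S and 4.5S windows, 1 point per library with the mean of each probe set as a line. Both odd libraries lie above both even libraries in all 3 panels of the 5S window, whereas odd replicates 1 and 2 lie far apart in bases covered of the 4.5S window, at 29.1 and 68.0 kb.

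Peaks of the arrays were wide. In the 5S window, widths ran from 273 to 1309 bp in even replicate 1 (median 654), from 308 to 1107 in even replicate 2 (median 641), from 243 to 2331 in odd replicate 1 (median 885) and from 238 to 7021 in odd replicate 2 (median 1160). Medians of all other peaks were 399, 404, 247 and 407 bp. In the 4.5S window the medians were 1102, 1093, 548 and 1832 bp, and the widest peaks 3199, 3351, 2144 and 13021 bp. The median in the array exceeded that of the rest of the list by 471 ± 264 bp (SD, n = 4) for 5S and by 780 ± 469 bp for 4.5S, in 4 of 4 libraries each (exact sign-flip permutation p = 0.125, adjusted 0.143). Odd replicate 2 had more peaks of at least 2 kb than any other list, 32 genome-wide. Of these, 12 lay in the 5S and 11 in the 4.5S window, together 71.9%. The other lists had 21, 13 and 15 such peaks (even replicates 1 and 2, odd replicate 1), of which the 4.5S window held 7, 3 and 1 and the 5S window 0, 0 and 1. The widest peak of odd replicate 2 in the whole genome was in the 4.5S window (chr6:47741421-47754441), and its widest in the 5S window (chr8:123573432-123580452) ran over 4 consecutive 5S genes.

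Recovery of the same stretches by separate pulldowns was more frequent in the arrays than elsewhere. In the 5S window, 97.9% and 100% of even and 96.6% and 84.9% of odd peaks overlapped a peak of another pulldown by at least 1 bp, where 25.8%, 24.1%, 22.1% and 20% of all peaks of these lists did. In the 4.5S window the share was 100% in even replicates 1 and 2 and odd replicate 1, and 92.0% in odd replicate 2. The excess over the rest of the list was 72.0 ± 4.92 percentage points (SD, n = 4) for 5S and 75.2 ± 2.54 for 4.5S (exact sign-flip permutation p = 0.125, adjusted 0.143), higher in 4 of 4 libraries. Peaks of the arrays were also wider and closer together, and the part of width and density in this excess was not tested. When 50% of both peaks had to be shared, the excess was 57.4 and 42.1 points. Bases covered by all 4 libraries came to 20206 in the 5S and 14419 in the 4.5S window, and 82910 and 73361 were covered by at least 1. Joined across libraries, the peaks formed 35 regions in the 5S window, 18 of them with peaks of all 4 pulldowns, and 13 regions in the 4.5S window, 8 of them with peaks of all 4. The widest such region of the 5S window, chr8:123604700-123619460, was 14761 bp long and held 39 peaks. It was followed by chr8:123572673-123580452, chr8:123542314-123549887, chr8:123619853-123624596 and chr8:123591754-123595684. In the 4.5S window the widest were chr6:47666239-47686978 (20740 bp) and chr6:47736965-47757594 (20630 bp), then chr6:47758361-47767175, chr6:47657733-47666183 and chr6:47651531-47657610.

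The 5S array is a regular series of short genes. The RefSeq table lists 51 of them from n-R5s100 to Gm23647, over 84962 bases (chr8:123538784-123623745), 49 by symbol or synonym and 2, Gm24312 and Gm23647, by their place and length. Starts of neighbours lay 1665 to 1727 bases apart, with a median of 1698. Of these genes, 32 have a curated RefSeq transcript and a length of 121 bases, 16 have only a predicted (model) transcript and a length of 119 bases, and 3 are pseudogenes. The peaks kept almost wholly to this span: outside it the window had 1 peak in even replicate 1, 0 in even replicate 2, 3 in odd replicate 1 and 5 in odd replicate 2.

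**Figure D2:**
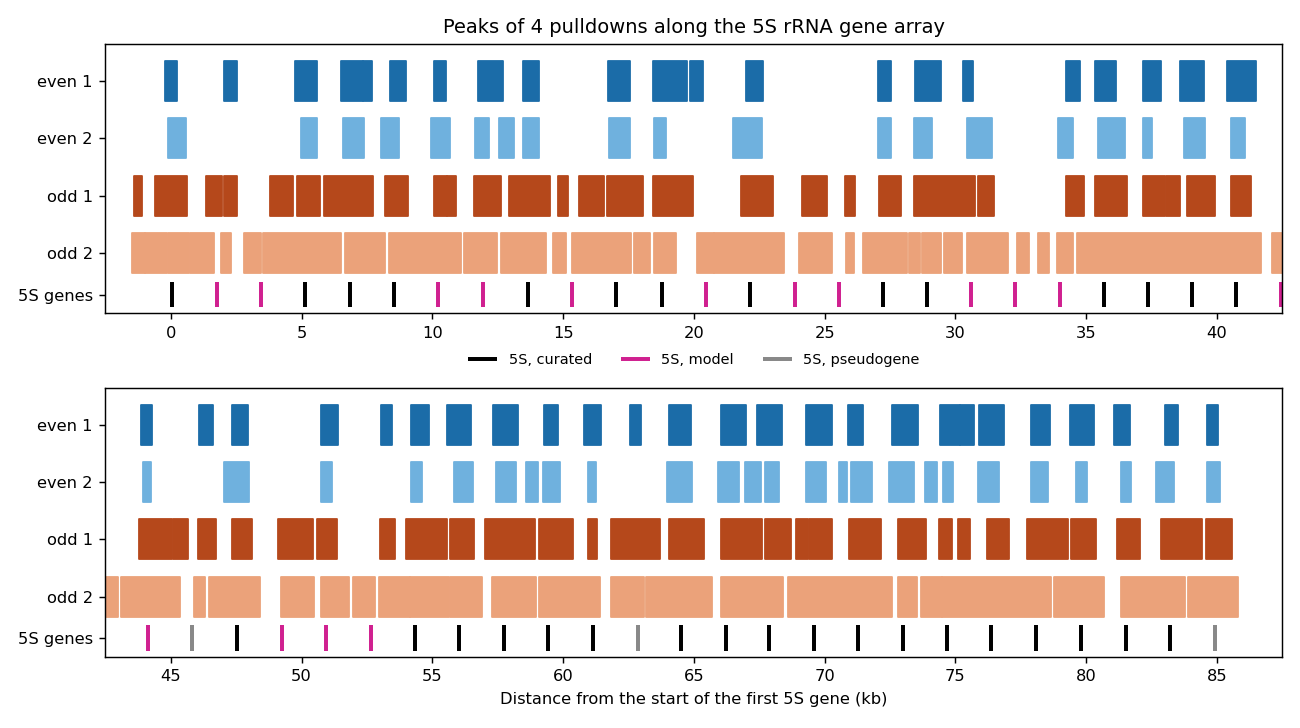
Peaks of each pulldown (bars, 1 row per library) along the 5S array, drawn in 2 panels, with distance from the start of the first 5S gene in kb and gene copies as ticks coloured by class. Peaks of the even libraries sit over the curated copies and leave gaps at many model copies, and peaks of odd replicate 2 run together over most of the 84962 bases.

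Peaks of the even libraries followed the repeat, those of odd replicate 1 less closely and those of odd replicate 2 hardly. The distance between neighbouring peak centres had a median of 1718.5, 1656.5, 1521.5 and 1612 bp (even pair, then odd pair), a mean of 1627 ± 82.9 (SD, n = 4) beside the 1698 bases of the gene repeat. Such medians alone do not show the repeat, since 44 to 55 peaks lay in 84962 bases. In odd replicate 2 the quartiles were 1157 and 2409 bp. In the even libraries, every peak with a gene held exactly 1, 39 peaks in each, and the median distance from a peak centre to the nearest gene centre was 114 and 118.5 bp. Centres of 39 of 51 genes (76.5%) were covered in each even library, against 6% and 8% of the 50 midpoints between neighbouring genes. In odd replicate 1 the gene centres were covered at 80.4% and the midpoints at 62%. Coverage there peaked 410 bp to the high-coordinate side of the gene centre, at 92.2%, and was lowest at -460 bp, on the low-coordinate side, at 23.5%. In odd replicate 2 gene centres and midpoints were covered alike, at 88.2% and 90%, and 8 of its 48 peaks in the array held 2 or more genes. The difference between gene centres and midpoints was 38.9 ± 36.3 percentage points (SD, n = 4), positive in 3 of 4 libraries (exact sign-flip permutation p = 0.25, also adjusted). Shifted against itself, the covered track of each library matched best at a lag of 1690, 1720, 1690 and 1710 bases within 1000 to 2500, with r = 0.306, 0.258, 0.145 and 0.026 over the 84962 positions, which share peaks and are no independent points. The odd replicate 2 track had next to no periodicity by this measure.

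**Figure D3:**
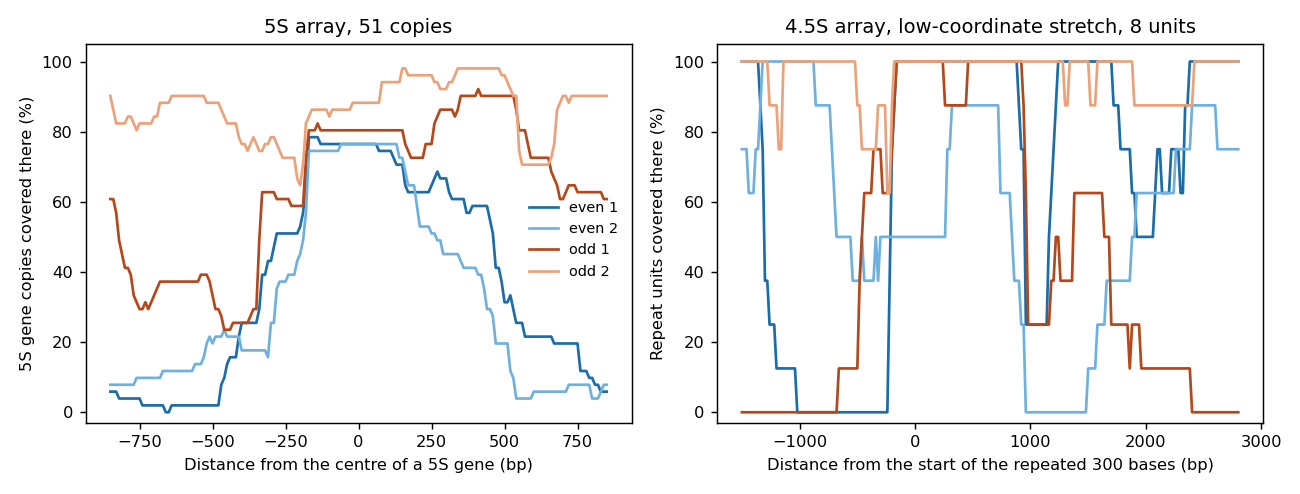
Percent of 5S gene copies covered by a peak at each distance from the gene centre in bp (left, 51 copies) and percent of 4.5S repeats covered at each distance from the start of the repeated 300 bases (right, 8 repeats of the low-coordinate stretch), 1 line per library. Left, both even lines stand at 76.5% over the gene and the midpoints between genes are at 6% and 8%, while odd replicate 2 is nowhere below 64.7%; right, even replicate 1 and both odd libraries cover all 8 repeats just after the start.

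The copies met by peaks were largely the same in all pulldowns. Of the 51 genes, 38 had a peak in all 4 libraries, 1 in 3, 2 in 2, 6 in 1 and 4 in none. For scale, 24%, 17%, 18.7% and 20.6% of all 49980 genes of the table overlapped a peak (even pair, then odd pair). All 32 curated copies were covered over their whole length in every library, among them n-R5s100 (chr8:123538784-123538904), n-R5s103 (chr8:123543871-123543991), n-R5s104 (chr8:123545576-123545696), n-R5s105 (chr8:123547263-123547383) and n-R5s108 (chr8:123552362-123552482). Of the 16 model copies, 5, 6, 7 and 12 overlapped a peak. Within each library the share of curated copies met was higher, by 53.1 ± 19.4 percentage points on average (SD, n = 4; exact sign-flip permutation p = 0.125, adjusted 0.143). This comparison was chosen after the values were seen, and neighbouring copies can lie under 1 peak. The model copies n-R5s114, n-R5s115 and n-R5s119 and the pseudogene n-R5s127 had no peak in any list. The 5 model copies met in all 4 lists were n-R5s106, n-R5s107, n-R5s118, Gm24312 and n-R5s130.

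Scores, the authors' value per peak, followed the same classes where they had room to vary. In the replicate 1 lists most peaks share a score of 3100: 85.1% of even and 100% of odd peaks of the 5S window, against 78.6% and 99.9% of all peaks. No 5S peak of the replicate 2 lists had this score, nor did most others (0.0641% of the even and 0.1% of the odd list). In even replicate 2, the score over the 32 curated copies ran from 236 to 1305 with a median of 713, and over the 6 model copies met it ran from 55.9 to 989 with a median of 152. In odd replicate 2, where a peak can hold several copies, the ranges were 469 to 2584 (median 946) and 62.2 to 1194 (median 174). The ranges overlapped in both lists. The model copy with the highest score in even replicate 2 was n-R5s107, at 989. Peaks of the array that held no gene had a median of 86.2 (even replicate 2, 5 peaks) and 100.1 (odd replicate 2, 13 peaks), and those with a gene 680 and 724. The best-scored peak of even replicate 2 lay over n-R5s141 (chr8:123608072-123608840, 1305), that of odd replicate 2 (chr8:123613287-123617422, 2584) over n-R5s144, Gm25212 and n-R5s146. In even replicate 1 the only score above 3100 in the window was 3101 over Gm24312 (chr8:123582625-123583064).

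**Figure D4:**
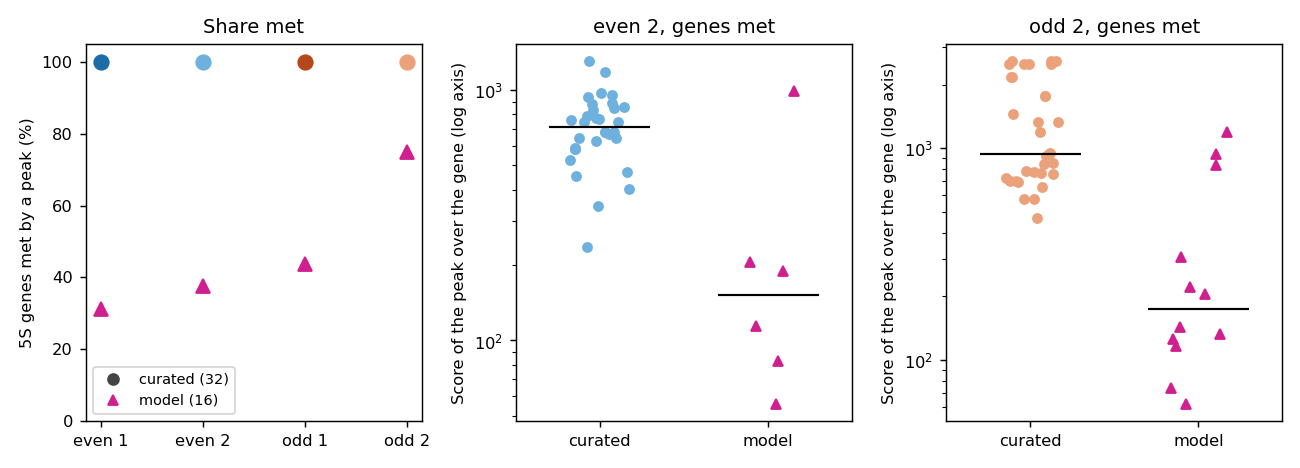
Percent of curated (32) and model (16) 5S copies met by a peak in each library (left), and the authors' score of the peak over each copy met in even replicate 2 (middle) and odd replicate 2 (right) on log axes, with medians as lines. Curated copies are at 100% in every library and model copies between 31.2% and 75%; in even replicate 2 the medians are 713 and 152.

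Against the whole lists, the windows ranked differently in the replicate 2 libraries. The 5S peaks of even replicate 2 had a median score of 643, at the 94.7 percentile of their list, and those of odd replicate 2 a median of 283, at the 66.4 percentile. The order was turned in the 4.5S window, where the medians were 129 and 514, at percentiles 6.73 and 92.3. Medians of the other peaks were 265 and 221. In even replicate 2, 4.5S peaks thus scored from 50.1 to 379 only, and in odd replicate 2 from 88.8 to 3100, with 9 of 25 peaks at 3100. In even replicate 1, 84.2% of the 4.5S peaks were at 3100.

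The 4.5S peaks fell into 2 stretches and an outlying region. The first stretch, 35448 bases at chr6:47651531-47686978, was covered by 67.1% and 58.4% with even probes, and by 40.2% and 96.2% with odd probes. The second, 41484 bases at chr6:47736965-47778448, was covered by 57.9% and 61.5% with even probes, and by 35.4% and 81.0% with odd probes. Between them, 49986 bases inside the predicted gene Gm40363 had no peak in any list. Whether the assembly holds sequence to which reads could align there was not tested, as no genome sequence was used here, so nothing is read from this absence. The outlying region (chr6:47627303-47627778) was found in even replicate 1 and both odd libraries, 23752 bases before the first stretch outside every gene of the table.

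**Figure D5:**
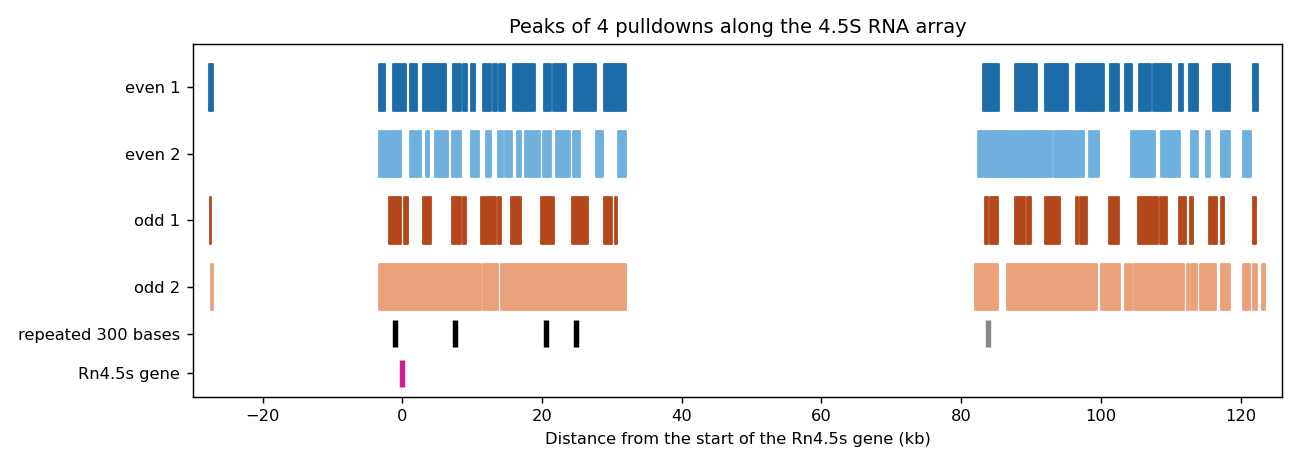
Peaks of each pulldown (bars, 1 row per library) along the 4.5S array, with distance from the start of the Rn4.5s gene in kb; ticks mark the 4 identical copies of the printed 300 bases (black), the near-identical copy (grey) and Rn4.5s. Peaks fill 2 stretches of 35448 and 41484 bases on either side of an interval of 49986 bases that has no peak in any library, whose assembled sequence was not examined.

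Within the first stretch, the best lag of 3 libraries lay near the length of the sequence repeat, with a low r in even replicate 2. The covered track matched itself best, within lags of 2500 to 6000, at 4320 bases in even replicate 1 (r = 0.703), 4300 in even replicate 2 (r = 0.218) and 4310 in odd replicate 1 (r = 0.597), next to the 4319 bases between identical promoter windows. In odd replicate 2, which covered nearly the whole stretch, the best lag was 2560 bases (r = 0.222). The r of even replicate 2 at its best lag was no higher than this. In the second stretch the replicate 1 libraries gave 4550 and 4340 bases (r = 0.374 and 0.463, even and odd), and the replicate 2 libraries 2500 and 2990 (r = 0.238 and 0.206). The 2500 of even replicate 2 is the lower limit of the search and gives no repeat length. At a lag of 850 its r was higher, at 0.284.

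The printed sequence was chosen because peaks lay over its copies, so its recovery is no test. Coverage of each annotated copy was as follows. At Gm40369, peaks at chr6:47653572-47654688, chr6:47653269-47654686, chr6:47653554-47654709 and chr6:47653553-47655036 covered all 300 bases (even pair, then odd pair). At Gm40367 the same held except in odd replicate 1, where 288 bases were covered, and at Gm36327 and Gm40364 all 300 were covered in every library. The near-identical copy at Gm52861 was covered fully in 3 libraries and over 226 bases in odd replicate 1. In even replicate 2 the peaks over the 4 identical copies scored 176, 101, 203 and 107, and that over Gm52861 scored 379, the highest of the window in that list. In the other libraries all of these peaks scored 3100. Identical bases thus lay under peaks whose scores ran from 101 to 203 within 1 list.

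Positions of the repeats without an annotated copy were then inferred from the spacing of 4319 bases, which gave 8 repeats in the first stretch. At 120 bases after the start of the repeated 300 bases, even replicate 1 and both odd libraries covered 8 of 8, and even replicate 2 covered 4 of 8. Those 4 were the annotated identical copies, for which the sequence was chosen. At the inferred repeats even replicate 2 missed this position. At the place where Rn4.5s lies in its repeat, even replicate 1 and odd replicate 2 covered 8 of 8, odd replicate 1 covered 3, and even replicate 2 covered 0. Positions in the second stretch were counted from the copy at Gm52861 alone, with the 4319-base spacing of the first stretch. Best lags there were 4550 and 4340 bases in even and odd replicate 1, so later positions may be out of phase. Counted this way, the second stretch did not show the split of the first. There the position 120 bases after the start was covered in 5 and 7 of 10 repeats with even and in 5 and 8 with odd probes, and the Rn4.5s position in 6 and 5 of 9 with even and in 4 and 7 with odd probes. Rn4.5s itself was covered over all 174 bases in even replicate 1 (score 1035), over 144 bases in odd replicate 2 (highest score 3100) and not at all in even replicate 2 or odd replicate 1. The even pulldowns thus differed at the annotated Rn4.5s gene and at its inferred positions in the first stretch. In the second stretch only their numbers of covered Rn4.5s positions were nearly alike, at 6 and 5 of 9. The covered positions were not all the same, and their phase was not tested. In base terms, 86.4% of the bases of odd replicate 1 in the 4.5S window were covered in even replicate 1 and 55.9% in even replicate 2. Odd replicate 2, called against the other input and with the most covered bases in the window, covered 94.2% of them. That the replicate number goes with the input library means that pulldown and input cannot be told apart here.

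Predicted genes inside the 4.5S array carried these peaks. Gm40369, Gm40367, Gm40365, Gm36327, Gm40364 and Gm40363, all listed as protein-coding models, and the lncRNA Gm52861 had peaks in all 4 libraries, with 2122 to 4155 of the 4248 bases of Gm40369 covered. The lncRNA Gm52862 had peaks in 3, missing in even replicate 2. Past the array, the Y RNA genes Rny3 and Rny1, which code for small RNAs bound by the Ro60 protein, had no peak in any list, and neither had Pdia4, which codes for a protein disulfide isomerase of the endoplasmic reticulum. Ezh2, the catalytic subunit gene of Polycomb repressive complex 2 and the nearest protein-coding gene on the low side, also had no peak along its 64997 bases. It ends 56261 bases before the first stretch. On the high side, Zfp786 had 1 peak, in even replicate 1. Genes flanking the 5S array had few peaks: Afg3l1 had 1 in even replicate 1 and 2 in odd replicate 2, Dbndd1 and the lncRNA Gm19600 1 each in odd replicate 1, and Gas8 1 in odd replicate 2. Beyond the window, Def8 had 1 peak in even replicate 1 and 1 in odd replicate 2, and Rab4a had none.

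Dispersed copies behaved less uniformly. Of 28 5S genes and pseudogenes outside the array, 8, 6, 6 and 4 overlapped a peak in the even and then the odd pair (28.6%, 21.4%, 21.4% and 14.3%). Among all 49980 genes of the table the shares were 24%, 17%, 18.7% and 20.6%. Among 2443 other small RNA genes they were 2.37%, 2.09%, 1.56% and 2.78%. These were small nuclear, small nucleolar, small cytoplasmic, Y and miscellaneous RNA genes, without tRNA genes or pseudogenes, whereas 17 of the 28 dispersed 5S copies are pseudogenes. Gene length was not taken into account. In total 8 different dispersed copies were met, 6 of them in at least 2 libraries. The 4 met in all libraries, named after their values were seen, were n-R5s194 on chromosome 3, the pseudogenes n-R5s88 on chromosome 9 and n-R5s71 on chromosome 11, and n-R5s33 on chromosome 16. Over n-R5s194 the replicate 2 scores were 2709 (even) and 2811 (odd), above every 5S array peak of its list. Over the other three it was 492, 478 and 334 with even and 768, 412 and 437 with odd probes. None of the 4 dispersed Rn4.5s pseudogenes had a peak in any list.

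Other genes of the pathway were read from lists of known members, by peaks anywhere in the gene, beside the 24%, 17%, 18.7% and 20.6% of all genes that overlapped a peak (even pair, then odd pair). Of 10 further polymerase III transcripts in the table, 2, 2, 3 and 2 had a peak. These were Rn7s1 and Rn7s2, copies of the 7SL RNA of the signal recognition particle, in all 4 libraries, and Rn7sk, the RNA that holds P-TEFb inactive, in odd replicate 1. Peaks covered the 299 bases of Rn7s1 in every library, with scores of 301 and 235 in even and odd replicate 2. Of 13 polymerase III subunit genes, 6, 6, 2 and 3 had a peak, among them Polr3b, the second-largest subunit, in all 4 libraries, Polr3e in 3, and Polr3a (the largest subunit), Polr3c and Polr3g in 2. Of 12 genes for TFIIIA, TFIIIB, TFIIIC and the repressor Maf1, 3, 2, 4 and 4 had a peak. Gtf3c1 and Gtf3c3, subunits of TFIIIC, had one in 3 libraries and Bdp1 and Tbp, subunits of TFIIIB, in 2, while Gtf3a, the gene for TFIIIA, had none. Of 6 genes listed around 5S rRNA and large subunit assembly, only Bop1 had a peak, in all 4 libraries. Bop1 was listed as an assembly factor and not as a protein that binds 5S rRNA. Rpl5 and Rpl11, which bind 5S rRNA before it joins the ribosome, had none. These counts took no account of how long each gene is.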

How the data were processed

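Peaks, made by the authors from single pulldowns, were the only data. Bowtie2 2.1.0 and the mm10 build are named, per the submitters' processing notes; peak names begin with MACS, per the files. The sources used here give neither its version nor its thresholds. The score deposited with each peak is the authors' value on a scale not stated, and was read only within a list. A joined list of all 130269 peaks was not used. Depth is unknown, so no counting interval was formed.

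From these, overlaps (at least 1 bp), covered bases, widths, distances and lags (steps of 10 bases) were computed with Python 3.11.15, numpy 2.4.6 and pandas 2.3.3, tested on simulated data. Genes and promoters came from RefSeq tables of GRCm38.p6 (49980 genes, no strand). Tests were exact, over the 4 libraries: 6 divisions for even against odd, 16 sign flips within libraries, adjusted by Benjamini-Hochberg over 4 and 8 tests, threshold 0.05. Members, lists and tests were chosen with earlier results of these data known. Named were Rn4.5s, genes of the windows with peaks, the nearest protein-coding genes, 5 5S genes by coverage and listed genes met in 2 libraries. Rny1, Rny3, Pdia4, Gtf3a, Rpl5, Rpl11, Rn7sk, dispersed copies and 5S copies named by class were named with their values in view. Alternatives tried were score, window, overlap and joining rules, each library left out, and replicate pairing. The comparisons of 5S classes and of gene centres with midpoints were added after seeing the data. A gene beside the 5S array is not reported here.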

Additional observations from a re-analysis of the deposited data

How the results depend on the processing

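Of 87 recalculated values for 14 results, 84 kept their direction and their side of the threshold, or moved by less than 1 SD where there was no test; none passed the threshold in any setting, since the exact tests of 4 libraries cannot. In the 4.5S window the peak number was 6.5 higher with even probes and turned to -9 when peaks below their list's median score were dropped. That filter acts unevenly. It dropped no array peak of odd replicate 1, all at 3100, but most 4.5S peaks of even replicate 2, whose median was at percentile 6.73. The difference in peak number ran from 0 to 13 when a library was left out, and was 0 without odd replicate 2. Covered bases there, -1331 for even minus odd, ran from -20749 to 18087, turning without odd replicate 2. In the 5S window the same differences were -10 peaks (-12.5 to -7.5) and -35891 bases (-46423 to -25359), and -2 peaks after peaks under 100 bp apart were joined. Replicates share a number, and through it an input, but no stated culture. With the replicate number as a block, the differences were the same, -10 and 6.5 peaks and -35891 and -1331 bases, with exact permutation p of 0.5 for 5S and 1 for 4.5S. The span of annotated genes could not be used as a window for 4.5S, where only Rn4.5s is listed. The excess of curated over model 5S copies met (53.1 points) was 71.1 points under the same uneven score filter and 62.5 without odd replicate 2. Read depth and placement in repeats limit all values.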
